A study of Homo sapiens with 3 samples.

Results

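The genes described here are the replication-dependent histone genes, which lie in clusters and supply the histones that package newly copied DNA. They were chosen by name: a probe belonged to the set when its RefSeq accession led to a protein-coding gene with an older symbol of the HIST1H, HIST2H, HIST3H or HIST4H series or with the current symbols *H1-1* to *H1-6*, *H2AC*, *H2BC*, *H3C* or *H4C* plus a number. Of 71 such genes in RefSeq, 66 had a probe, and their 75 probes stood among 58201 probes and 47753 gene names in all. The genes *H3-7*, *H2BC18*, *H4C14*, *H3C14* and *H2AC18* were not found on the array by their accession. A further 19 pseudogenes carry an older symbol of the same series, 2 of them with a probe, and were left out. The rule itself reads names and no measured value.

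RNA came from A549, an established human lung adenocarcinoma cell line, and was read on 3 Agilent arrays of 1 colour. The mock array held RNA from cells given the transfection reagent alone, with no miRNA, and the others held RNA from cells transfected with *miR-139-5p* or *miR-139-3p* at 10 nM each, with the same reagent, Lipofectamine RNAiMAX. As each condition had a single array, differences could not be checked against replicates, no test was run, and precision is limited by the 3 arrays. Slide 1 carried mock and *miR-139-5p*, whereas *miR-139-3p* was on slide 2, and its transfection cannot be told apart from its slide.

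Each nucleosome wraps DNA around core histones of the classes H2A, H2B, H3 and H4, and linker histones of class H1 bind between nucleosomes. The clustered genes are transcribed mainly in S phase, when the cell copies its DNA. Their mRNAs lack introns and usually end in a conserved stem-loop in place of a poly(A) tail; the stem-loop binding protein holds this end, and the mRNA is degraded when DNA synthesis stops. The labelling kit used here starts from oligo-dT primers, which pair with poly(A). The arrays therefore read mainly the polyadenylated forms of these mRNAs, and a value is not the total histone mRNA of the cells. In RNA from a whole culture, fewer cells in S phase and less histone mRNA per cell cannot be told apart.

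The transfected miRNAs are the mature products of the opposite arms of one hairpin, *MIR139*, and share no seed. Their sequences are shown because they are the only difference intended between the 2 transfected samples. The seed, bases 2 to 8, is in capitals. In RefSeq on GRCh38.p14 both lie on the minus strand, *miR-139-5p* at chr11:72615102-72615124 and *miR-139-3p* at chr11:72615066-72615088.
hsa-miR-139-5p: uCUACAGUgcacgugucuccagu
hsa-miR-139-3p: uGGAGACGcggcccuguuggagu

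The promoters of many members carry known elements: the octamer ATTTGCAT, which the POU factor OCT1 binds at H2B genes, the TATA box TATAAA and the CCAAT box. In RefSeq, 61 of the 66 genes had a promoter entry, from 250 bases before to 50 after the start site; *H2AC12*, *H3C11*, *H3C12*, *H4C1* and *H4C3* had none. Counting either strand, ATTTGCAT stood in 24 of the 61 promoters, in 11 of 15 of class H2A and 13 of 17 of class H2B and in 0 of the other classes, against 1.82% of the promoters of all 27305 genes with an entry. TATAAA, counted anywhere in the entry, stood in 42 of 61, against 12.1% of all. In *H1-3* it began 30 bases before the start site but in *H4C16* 250, so a match need not be that gene's TATA box. CCAAT stood in 52 of 61, against 35.6% of all, and in only 3 of 12 of class H4. Among the 5 highest values with *miR-139-3p*, *H2AC1*, *H2AC8* and *H3-4* had TATAAA and *H3C3* did not. Among the 5 lowest, *H2BC6*, *H1-3* and *H3C15* had it, and *H2AC16* and *H4C5* did not. The stretches below are shown for the genes with the octamer among the 5 lowest and the 5 highest values. They are also shown for *H1-3* and *H3C15*, 2 further genes among the 5 lowest, around their TATA box. Each is written along the gene's strand with the element in capitals, and ATGCAAAT is the octamer read on the opposite strand.
H2AC16, chr6:27865100-27865129, plus strand: cacgaattcttATGCAAATgaggtgattaa
H2BC6, chr6:26183642-26183671, plus strand: taagctccttcATTTGCATgcagacttcac
H2AC8, chr6:26216718-26216747, plus strand: ataggcctttcATGCAAATaaagaattcaa
H2AC1, chr6:25726662-25726691, minus strand: aagtggcgtgaATGCAAATgaggcgattct
H1-3, chr6:26235000-26235029, minus strand: agcgtctctctaTATAAAccctcagcctcc
H3C15, chr1:149852564-149852593, plus strand: aaagactgtgctTATAAAgacggctgcggc
*H2AC16* and *H2BC6* were among the lowest genes. *H2AC8* and *H2AC1* were among the highest, but *H2AC8*, at 0.27, did not pass 0.5, and *H2AC1*, near the floor of the array, went from 0.63 to 0.15 with normexp and 0.13 with quantile normalization. Neighbouring H2A and H2B genes that are read in opposite directions can share 1 octamer, as *H2AC8* does with *H2BC8*, which was at -0.61. A match of these letters is a description of the sequence and not evidence that a factor binds there.

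Levels are given on the log2 scale relative to the 75th percentile of the signals of the same array, so a level of 0 equals that percentile. Between 48.1% and 53.1% of the spots of an array were well above background, and 0 were saturated. The log2 fold change of a gene is the difference of its levels on a pair of arrays, averaged over those of its probes that passed this background mark on both. Where only 1 of the pair was above background, a bound was computed from the lowest signal that passed. Probes of the same gene differed with a median SD of 0.28 for *miR-139-3p* against mock over 3889 genes and of 0.15 for *miR-139-5p* over 3938 genes. A difference beyond 0.5 in either direction is counted below as lower or higher. The cell identity was checked on fixed markers: 9 of 9 epithelial and A549 markers were well above background on each array, and of 10 markers of blood, endothelium, fibroblasts and smooth muscle 6 passed in mock and 5 with *miR-139-5p*, against 7 with *miR-139-3p*. The summed level of these 10, on the linear scale, was 5.24, 5.60 and 6.73 times the 75th percentile in the same order, beside 1956, 1765 and 1145 times for the epithelial markers. The epithelial sum rests on the brightest genes, and gene by gene 4 of the 9 were lower with *miR-139-3p* and 1 higher, with a median log2 fold change of -0.06. *COL1A2* and *PECAM1* had no value in either comparison with mock. The part of these shifts in the results below was not tested.

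Clustered histone genes were mostly lower after *miR-139-3p* transfection and close to mock after *miR-139-5p* transfection. With *miR-139-3p*, 61 members had a value against mock, of which 42 lay below -0.5 and 3 above 0.5, with 16 between. Over all gene names with a value, 21.8% lay below -0.5 and 35.4% above 0.5, and among the 8459 protein-coding genes above the 75th percentile of the mock array 37.4% lay below and 11.6% above. The median log2 fold change over the 60 members measured on both arrays was -0.85, with quartiles of -1.17 and -0.44, beside 0.09 over all gene names and -0.29 over those brighter coding genes. The members' values ran from -1.88 to 1.51, and 55 of the 60 were below 0. The remaining member with a value, *H2BC7*, had only a bound of 0.35.

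For *miR-139-5p* against mock, 1 of 59 members with a value lay below -0.5 and 0 above 0.5, while 12.1% of all gene names lay below and 10.7% above, and among the brighter protein-coding genes 9.8% and 7.66%. The median over 58 measured members was 0.01, also 0.01 over all gene names, and the range was -0.49 to 0.39. On the *miR-139-5p* array, 29 of the 58 members lay within 0.1 of mock and 50 within 0.25. The single call was *H2AC25*, an H2A gene of cluster 3, whose value of -0.80 was a bound. Both comparisons share the mock array. Set directly against the *miR-139-5p* array, the *miR-139-3p* array had 42 of 61 members below -0.5 and 3 above 0.5, with a median of -0.88, beside 21.8% and 34.9% of all gene names. Of 58 members well above background on each of the 3 arrays, the *miR-139-3p* array was the lowest in 52, the highest in 5 and between the others in 1. The other 8 members lacked such a reading: *H1-1*, *H1-6*, *H2BC1* and *H4C7* had no value in any comparison, and *H2AC19*, *H2AC21* and *H2BC7* had a value or a bound in some comparisons only. *H2AC25* was measured for *miR-139-3p* against mock, at -0.28, and had bounds otherwise. *H2AC19* was at -0.36 for *miR-139-3p* against mock, and *H2AC21* was at -0.34 for *miR-139-3p* against *miR-139-5p*.

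**Figure D1:**
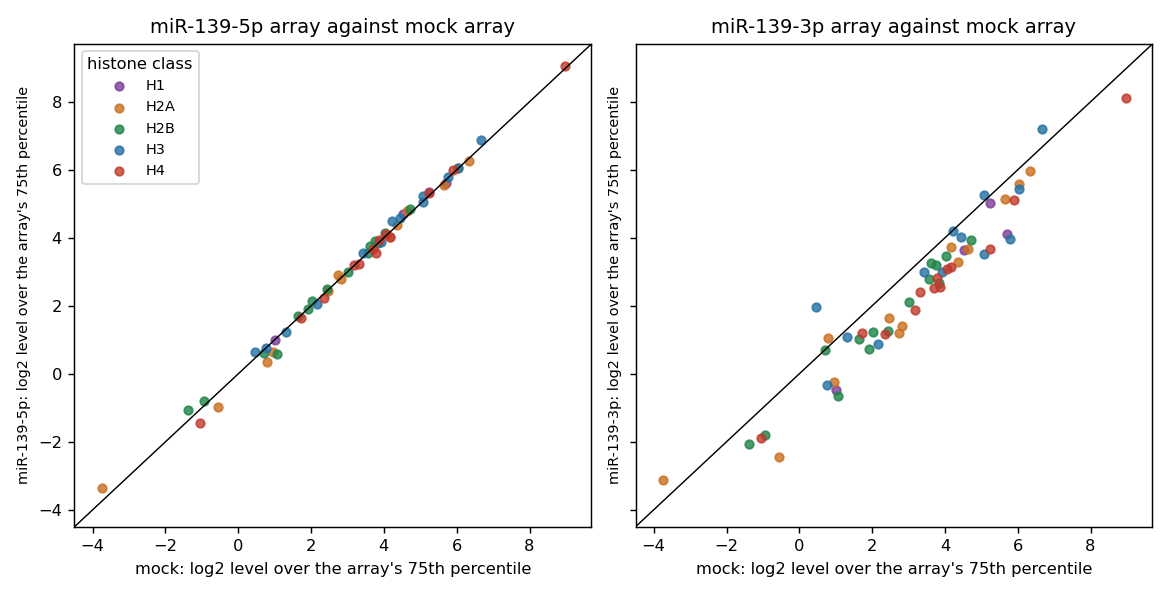
Level of each of 58 histone genes on the *miR-139-5p* array (left) and on the *miR-139-3p* array (right) against its level on the mock array, all as log2 over the 75th percentile of the array; points are genes, colours are histone classes and the line marks equal levels. Points follow the line on the left, with 50 of 58 within 0.25 of it, and most lie under it on the right.

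The counts for *miR-139-3p* depended on the scaling in size and not in direction. When arrays were scaled on E1A spike-in RNA, added to each sample from the array kit, the median of all gene names moved by -0.23 and the histone median was -1.09, with 51 members below -0.5 and 1 above 0.5. With the percentile restricted to probes that were detected on each array, the median of all names moved by 0.17 and the histone median was -0.68, with 37 below and 4 above.

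The linker histones were read at unequal sizes of change. *H1-3* had a level of 5.70 on the mock array and 5.60 with *miR-139-5p*, against 4.11 with *miR-139-3p*, where it was 3.02-fold lower than in mock. *H1-5* had levels of 1.00, 0.98 and -0.48 in the same order and was 2.80-fold lower, a log2 fold change of -1.48. With normexp that value was -1.04. *H1-4* had levels of 4.52, 4.69 and 3.64, which placed *miR-139-3p* at -0.88 from mock. For these 3 genes the *miR-139-3p* array stood below both other arrays by more than the usual spread between probes, and those 2 arrays were close together. *H1-2*, which is known to have polyadenylated transcripts, had levels of 5.23, 5.36 and 5.03, and its difference from mock with *miR-139-3p*, -0.20, was within that spread. *H1-1* and the testis histone gene *H1-6* were not well above background on any array. The median over the 4 linker histones measured was -1.18 with *miR-139-3p* beside 0.05 with *miR-139-5p*.

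Class H2A was spread more widely: 7 of 15 members with a value, or 46.7%, were lower with *miR-139-3p* and 1 was higher, with a median of -0.50, beside 37.4% lower among the brighter protein-coding genes. *H2AC16* had the lowest value of all members, with a level of -0.56 on the mock array and -0.97 with *miR-139-5p*, against -2.44 with *miR-139-3p*, a log2 fold change of -1.88. It is a dim probe, and with normexp background correction the value was -0.61. *H2AC13* followed with a log2 fold change of -1.55 and *H2AC11* with -1.40, while *miR-139-5p* left both within 0.2 of mock. *H2AC6*, whose transcripts can be polyadenylated, was 2.29-fold lower with *miR-139-3p*, a log2 value that normexp brought to -0.76, and its value of -0.32 was among the 5 lowest with *miR-139-5p*. The brightly read *H2AC12*, *H2AC14* and *H2AC15*, with levels of 5.64, 6.33 and 6.03 in mock, had log2 fold changes of -0.50, -0.36 and -0.44, none past the threshold, though all 3 passed it with E1A scaling. *H2AC8* went the other way from most of its class, with levels of 0.78, 0.36 and 1.06 in the order mock, *miR-139-5p*, *miR-139-3p*. Its value of -0.42 with *miR-139-5p* was among the lowest there, and its 0.27 with *miR-139-3p* among the highest. *H2AC1*, known as a testis histone gene, was near the floor of the array with levels of -3.75, -3.37 and -3.12, and its 0.63 with *miR-139-3p* became 0.15 with normexp and 0.13 with quantile normalization.

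Class H2B was lower in 13 of 16 members with a value and higher in 0, with a median of -0.79 over the 15 measured, beside 37.4% lower among the brighter protein-coding genes and 21.8% among all gene names. *H2BC6* had levels of 1.07, 0.58 and -0.66 in the order mock, *miR-139-5p*, *miR-139-3p*, and it was the lowest measured member with *miR-139-5p*, at -0.49, and the third lowest with *miR-139-3p*, at -1.72, or -1.06 with normexp. *H2BC3*, *H2BC14* and *H2BC11* lay close together at -1.18, -1.17 and -1.17 with *miR-139-3p* and within 0.1 of mock with *miR-139-5p*. The value nearest to 0 was that of *H2BC15*, at -0.01, with levels of 0.69, 0.61 and 0.69, which did not differ between the arrays beyond the probe spread. *H2BC26* of cluster 3 had a value of 0.33 with *miR-139-5p* beside -0.67 with *miR-139-3p*, and the latter was -0.10 with normexp. Over classes H2A and H2B together, the 21 measured genes with the octamer in their promoter had a median of -0.82 with *miR-139-3p* and a range of -1.88 to 0.63, with 16 below -0.5. The 8 without it had a median of -0.55 and a range of -1.55 to -0.01, with 4 below -0.5, and their range lay inside that of the first group. The brighter protein-coding genes had 37.4% below -0.5, and pairs such as *H2AC11* and *H2BC11* share 1 octamer, so the genes of the first group are not independent.

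Class H3 ran from -1.81 to 1.51 with *miR-139-3p*. *H3C15* had levels of 5.77, 5.79 and 3.96 in the order mock, *miR-139-5p*, *miR-139-3p*, and was 3.52-fold lower with *miR-139-3p* and level with mock with *miR-139-5p*. *H3C2* and *H3C7* had log2 fold changes of -1.56 and -1.29 with *miR-139-3p*. In all, 6 of 13 members, or 46.2%, were lower and 2, or 15.4%, higher, and the median was -0.45. Both shares were near the 37.4% and 11.6% of the brighter protein-coding genes. *H3C12* had levels of 0.46, 0.64 and 1.97, so that its *miR-139-3p* level stood 1.51 above mock and 1.33 above *miR-139-5p*. *H3-4*, a histone known from testis, was read brightly at 6.67, 6.88 and 7.21. The rise with *miR-139-3p* came to 0.54 on the log2 scale, which was under 0.5 with E1A scaling, with no scaling and with normexp. *H3C3*, at 5.06, 5.06 and 5.26, and *H3C1*, at 4.23, 4.49 and 4.19, did not pass the threshold in either comparison. *H3C13* was lower with *miR-139-3p*, at -0.59, but at -0.46 with quantile normalization.

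In class H4, 13 of 13 members with a value were lower with *miR-139-3p*, between -1.57 and -0.53, with a median of -0.99, beside 37.4% lower among the brighter protein-coding genes and 21.8% among all gene names. The value nearest to 0 was that of *H4C1*, whose probes differed, and set against the *miR-139-5p* array 11 of the 13 lay below -0.5. With the percentile restricted to probes detected on each array, which raised values by 0.17, *H4C1* fell short of -0.5. *H4C3* had levels of 8.98, 9.06 and 8.11 in the order mock, *miR-139-5p*, *miR-139-3p* and was 1.83-fold lower with *miR-139-3p*. *H4C5* had levels of 5.23, 5.31 and 3.66 and was 2.96-fold lower, the lowest of its class. *H4C2* had a level of 5.89 on the mock array and 5.11 with *miR-139-3p*, and its log2 fold changes were -0.78 for the latter and 0.11 for *miR-139-5p*. In each of these genes the mock and *miR-139-5p* levels lay within 0.12 of each other and the *miR-139-3p* level beneath both. *H4C16*, the only member of cluster 4, had a value of -0.86 with *miR-139-3p* beside -0.41 with *miR-139-5p*, and the former was -0.30 with normexp. The H4 genes encode nearly the same protein and have very similar coding sequences, as do the genes within the other core classes, so a probe can also take up mRNA of another copy and the 13 values are not independent readings of 13 genes.

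**Figure D2:**
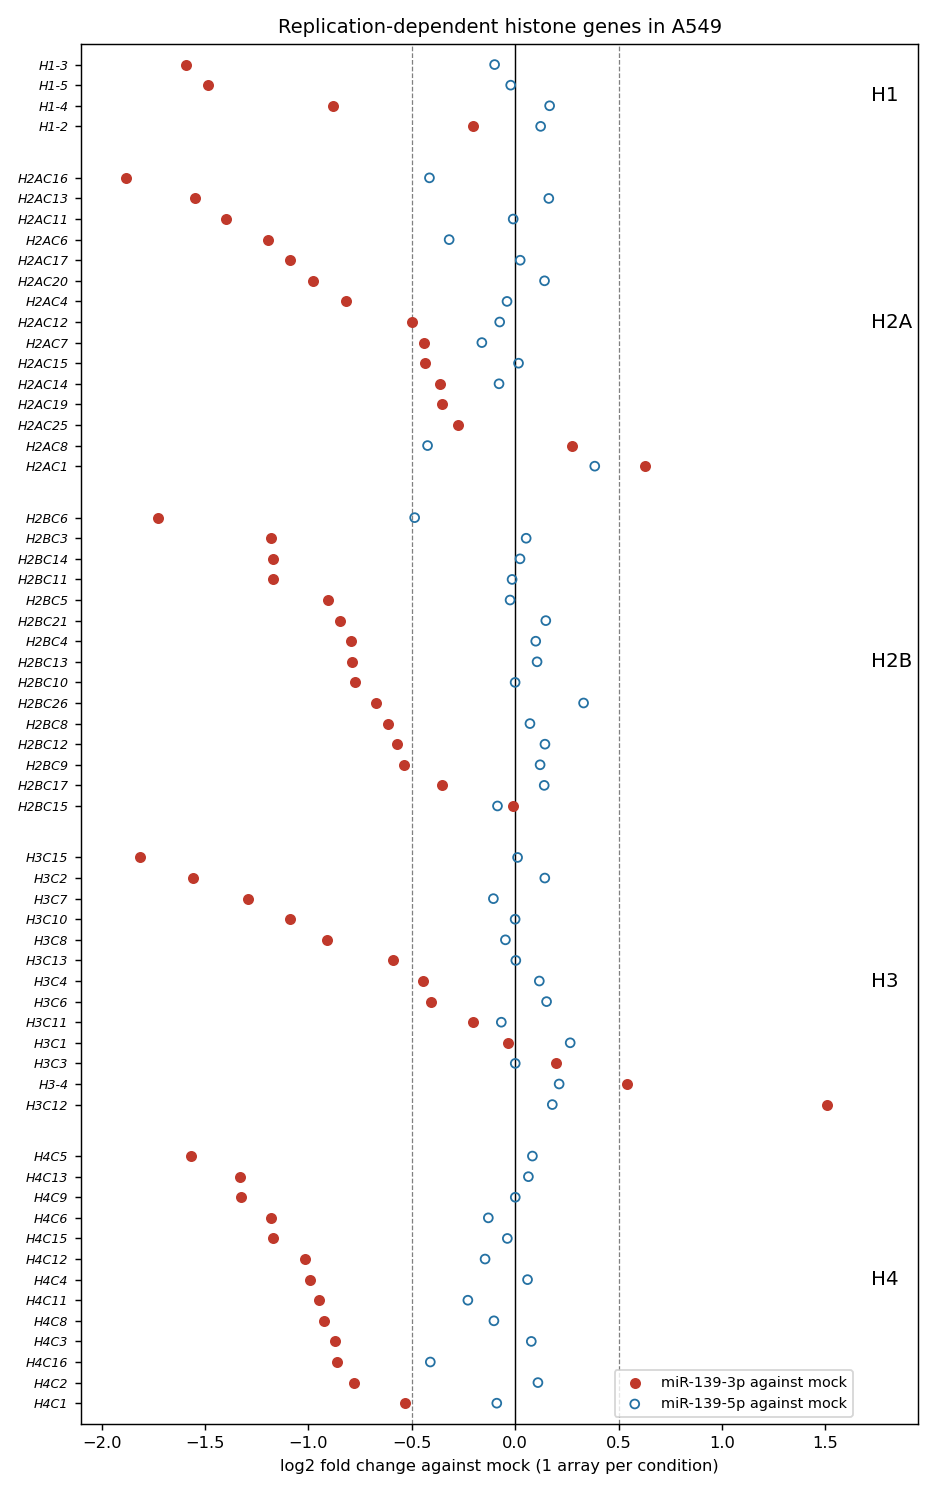
log2 fold change against mock for each of the 60 members measured with *miR-139-3p* (filled red) and, where measured, with *miR-139-5p* (open blue), sorted within the classes H1, H2A, H2B, H3 and H4; each point is 1 gene on 1 pair of arrays, and dashed lines mark -0.5 and 0.5. The red points of class H4 all lie left of -0.5, those of classes H2A and H3 reach from under -1.8 to above 0.5, and the blue points lie between -0.49 and 0.39.

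In 8 members a pair of probes could be compared on all arrays, and in *H2BC21* the second probe was not well above background on any array. Both probes were below 0 with *miR-139-3p* in 8 of 8, and they differed from each other by 0.28 to 0.81, with a median of 0.41. *H4C4* was read at -1.40 by 1 probe and at -0.59 by the other, and *H4C1* at -0.93 and -0.14. With *miR-139-5p* the median difference between the probes was 0.10. The direction with *miR-139-3p* did not depend on the probe in these genes, and its size did. In *H4C1* and *H2BC12* only 1 of the probes passed -0.5.

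**Figure D3:**
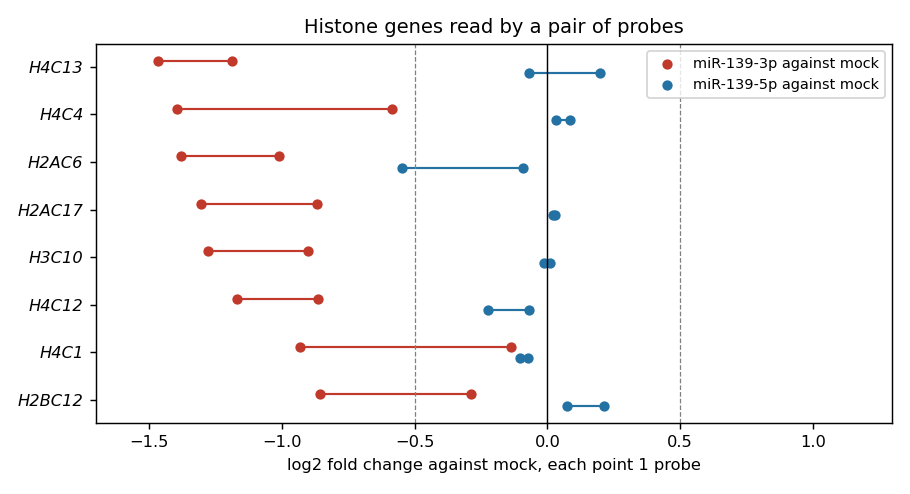
log2 fold change against mock from each probe of the 8 histone genes with 2 probes well above background on all arrays, for *miR-139-3p* (red) and *miR-139-5p* (blue); lines join the probes of a gene and dashed lines mark -0.5 and 0.5. All 16 red points lie below 0, and the longest red lines are those of *H4C4* and *H4C1*.

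By position, 35 of 51 members of cluster 1 on chromosome 6 were lower with *miR-139-3p* and 2 higher, with a median of -0.88. In cluster 2 on chromosome 1, 5 of 6 were lower, with a median of -0.91, and in cluster 3 on chromosome 1, 1 of 3 was lower and 1 higher. The share lower among the brighter protein-coding genes was 37.4%, and among all gene names 21.8%, and the 1 of 3 of cluster 3 was near the former. Transcript form was looked at in 2 ways, since the primers favour poly(A). Of members listed from general knowledge as having polyadenylated transcripts, 8 of 10 were lower, with a median of -0.82. Of the other members, 34 of 51 were lower, with a median of -0.87, against the same background. The 7 members whose longest RefSeq transcript exceeds 1000 bases had a median of -0.80, beside -0.87 for the 53 measured members with shorter ones. Both groupings thus gave nearly equal medians.

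The genes that copy DNA are the natural comparison, because histone mRNA is tied to S phase. Of 54 DNA replication genes with a value, 46 were lower with *miR-139-3p* and 0 higher, with a median of -1.32 and quartiles of -1.73 and -0.90. They are 85.2%, beside 37.4% of the brighter protein-coding genes and 21.8% of all gene names. The histone median stood 0.46 above the replication median, and this gap ran from 0.33 to 0.60 over the alternative settings. *MCM2*, a subunit of the replicative helicase, had the lowest value at -2.92. *ORC1* of the origin recognition complex was at -2.46, *GINS2* of the helicase complex at -2.30, *POLE2* of DNA polymerase epsilon at -1.79, and *CDC6*, which loads the helicase, at -1.09. With normexp *CDC6* was at -0.32, short of the threshold, *ORC1* at -1.03 and *POLE2* at -1.15. Enzymes of nucleotide supply were apart from each other, with *RRM2* of ribonucleotide reductase at -1.55 and thymidylate synthase *TYMS* at -0.48. The sliding clamp *PCNA* was at -0.44, above the histone median. *TYMS* and *PCNA* passed -0.5 with E1A scaling, at -0.72 and -0.67. The lowest histone value, -1.88, lay well inside the range of the replication genes, which reached -2.92. With *miR-139-5p*, 8 of 53 replication genes, or 15.1%, were lower and 1 higher, with a median of -0.13. The share lower there was 12.1% of all gene names and 9.8% of the brighter protein-coding genes. *MCM2* was at -0.71 there, and *ORC1* and *CDC6* were at -0.58 and -0.51, which became -0.46 and -0.39 with E1A scaling.

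**Figure D4:**
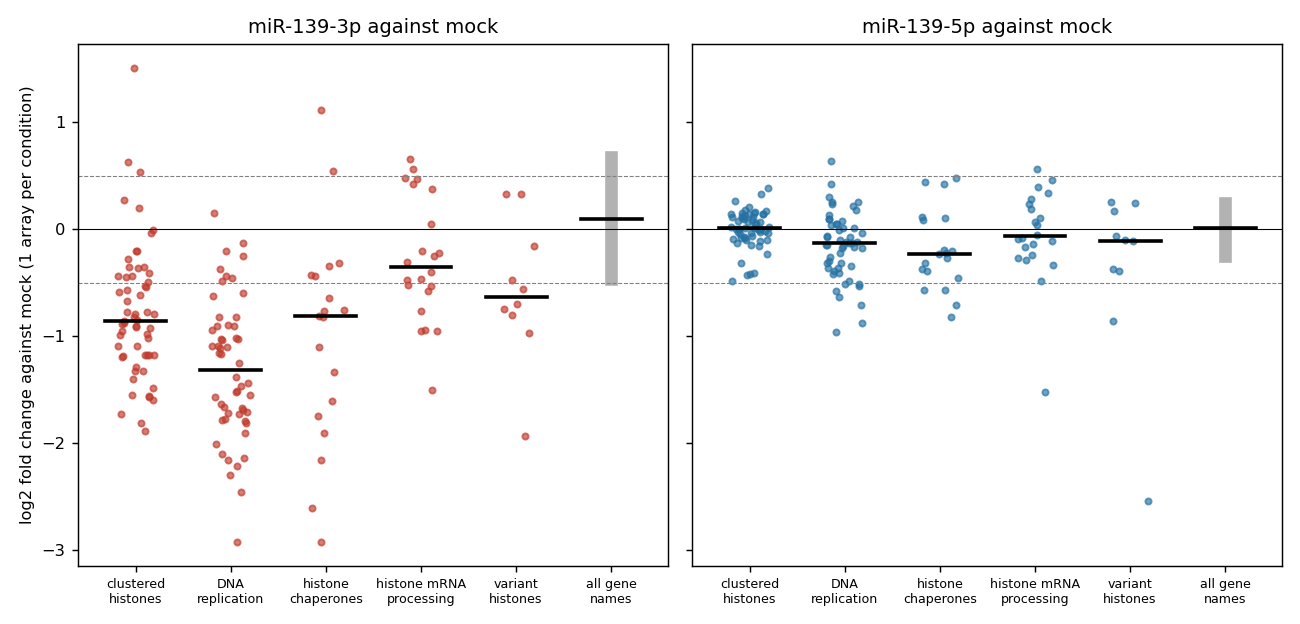
log2 fold change against mock with *miR-139-3p* (left) and *miR-139-5p* (right) for genes measured on both arrays; each point is 1 gene, black bars are medians, and the grey bar spans the quartiles of all gene names. With *miR-139-3p* the medians are -0.85 for clustered histones, -1.32 for DNA replication, -0.81 for histone chaperones, -0.35 for histone mRNA processing and -0.63 for variant histones, and with *miR-139-5p* all lie between -0.23 and 0.01.

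Factors that make and trim histone mRNA were lower in 8 of 22 with a value with *miR-139-3p* and higher in 2, with a median of -0.35. The 8 make up 36.4%, near the 37.4% of the brighter protein-coding genes. *SLBP*, which encodes the stem-loop binding protein, had levels of 3.71, 3.37 and 2.94 in the order mock, *miR-139-5p*, *miR-139-3p*, or -0.76 with *miR-139-3p* beside -0.34 with *miR-139-5p* as log2 fold changes. *LSM10* of the U7 snRNP, which cuts the 3′ end of these mRNAs, and *ERI1*, an exonuclease that acts on the stem-loop, were both at -0.95 with *miR-139-3p* and near mock with *miR-139-5p*, at -0.05 and -0.08. *NPAT*, the transcription coactivator of the clusters, was at -0.31 with *miR-139-3p* beside 0.40 with *miR-139-5p*, and *CASP8AP2*, also needed for histone expression, at -0.40 and 0.46. Neither passed the threshold here, but with quantile normalization and with E1A scaling both passed -0.5 with *miR-139-3p*, *NPAT* at -0.71 and -0.54 and *CASP8AP2* at -0.62 and -0.63. With E1A scaling both also passed 0.5 with *miR-139-5p*, at 0.52 and 0.59. *ZNF473*, a U7 snRNP partner, was at -0.47 and -0.49, and the first of these was -0.65 with quantile normalization. *LSM11* was at 0.48 and, past the threshold with *miR-139-5p*, 0.56, which was 0.14 with normexp.

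Histone chaperones, which carry histones to DNA, were lower in 13 of 19 with *miR-139-3p* and higher in 2, with a median of -0.81. These are 68.4% and 10.5%, beside 37.4% and 11.6% of the brighter protein-coding genes. *MCM2*, which also binds H3 and H4, is in this list and in the replication list, and it is counted in both, for *miR-139-5p* as well. The subunits of chromatin assembly factor 1 were at -1.61 for *CHAF1A* and -1.91 for *CHAF1B*. *ASF1B*, which hands H3 and H4 to that complex, was at -2.61 and the H3 and H4 carrier *NASP* at -1.74. With normexp *CHAF1A* was at -1.01 and *NASP* at -0.93. With *miR-139-5p* 4 of 19 were lower, or 21.1%, and 0 higher, beside 12.1% lower among all gene names and 9.8% among the brighter protein-coding genes. *CHAF1B* was among the 4 at -0.57, and at -0.45 with E1A scaling.

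Variant histones are not tied to S phase in the same way and come mostly from single genes with polyadenylated mRNA, so the labelling does not set them apart from ordinary transcripts. With *miR-139-3p*, 6 of 10 were lower and 0 higher, with a median of -0.63, beside 37.4% lower among the brighter protein-coding genes and 21.8% among all gene names. The centromere histone *CENPA* was at -1.93, or -1.56 with normexp. *H2AZ1* was at -0.97, the linker variant *H1-10* at -0.81, and *MACROH2A2* and *MACROH2A1* at -0.70 and -0.56. *H3-3A*, a gene for the replacement histone H3.3, was at -0.16, and *H2AJ* and *H3-5* were both at 0.33. *H2AZ2* had the lowest value of the list with *miR-139-5p*, where it lay -2.54 from mock, a reading of 1 probe. Its value of -0.47 with *miR-139-3p* was the mean of 2 probes with an SD of 0.63. That value was -0.92 when only the brightest probe was used. It also passed -0.5 with quantile normalization, with E1A scaling and with no scaling. *MACROH2A1* was also lower with *miR-139-5p*, at -0.85. Its value with *miR-139-3p* fell short of the threshold with quantile normalization, and that of *MACROH2A2* with normexp, at -0.45. *H2AX* had no value against mock.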

How the data were processed

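Total RNA of 3 A549 samples was labelled with the Agilent Low Input Quick Amp kit, 1 array per condition. Spot intensity values that the authors deposited came from Agilent Feature Extraction 12.1.1.1, background-subtracted within the array and not normalized between arrays, with the median spot and local background intensity. The authors also deposited a log2 table per probe, which followed the quantile-normalized log2 signals of each array closely and was used as an alternative.

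From the intensity, log2 of the processed signal minus that of the array's 75th percentile was computed over spots other than controls. Outlier spots (614 on mock, 935 on *miR-139-5p*, 1526 on *miR-139-3p*) were dropped and spots of a probe averaged. A probe was well above background where at least 50% of its spots were, and a gene's fold change was the mean over such probes. For bounds, the dim array took the lowest signal that passed the background mark there, or the signal of the probe itself where that was higher. RefSeq symbols (GRCh38.p14) were found for 24751 of 25277 NM accession probes. The array was designed on hg19, so coordinates are given only for printed sequences.

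The members and gene lists were chosen with earlier results of these data known, and the lists were compiled from general knowledge. Named genes were, among members measured on all arrays, the 10 with the highest mock signal and the 5 highest and 5 lowest in each comparison with mock, the linker histones, and fixed genes of the lists, with the measured genes of the variants list. Some single genes of these lists are not reported here. Others were named after their values were seen: *H2AC13*, *H2AC11*, *H2BC3*, *H2BC14*, *H2BC11*, *H2BC15*, *H3C2*, *H3C7* and the genes with a pair of probes. On probes with 10 spots each, the SD between spots was 0.05 to 0.06, which is technical spread within an array.

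In all, 12 alternatives were fixed and 1 was added. The normexp alternative (limma 3.58.1, R 4.3.3, offset 50) used the median spot signal in place of the planned mean signal. E1A scaling used the median over 7 spike-in probes of their difference from mock. Python 3.11.15, numpy 2.4.6, pandas 2.3.3 and matplotlib 3.10.9 were used, and the steps were tested on simulated data.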

Additional observations from a re-analysis of the deposited data

How the results depend on the processing

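No paired analysis was possible because each condition had 1 array. Over the alternatives at the threshold of 0.5, the histone median for *miR-139-3p* against mock ran from -1.10 to -0.68 and the replication median from -1.56 to -1.06. The 42 histone genes below -0.5 became 21 at a threshold of 1, where the stricter threshold itself is the cause. The 3 above 0.5 became 1 with E1A scaling in either form, no scaling, normexp and a threshold of 1. For *miR-139-5p*, the 1 below -0.5 became 2 with the 75th percentile over detected probes or no scaling, 3 with no filter on dim probes, and 0 with normexp, with probes well above background on all arrays and at a threshold of 1; the 0 above 0.5 became 1 with E1A scaling in either form and with outlier spots kept. With the added E1A form, a median of pooled spots chosen after seeing the data, the *miR-139-5p* medians were 0.17 for histones and 0.028 for replication genes. For changes with no cause given here, the cause was not tested. Of the single gene values recomputed, 1146 moved by less than the probe spread, 102 by more, and 0 called values changed sign. Signal over background limits *H2AC16*, *H2AC1*, *H2BC26*, *H4C16* and *CDC6* among others, whose values moved with background correction.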

Other observations

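Some probes on the array are for long noncoding transcripts named after a nearby clustered histone gene, and these names were chosen after their values were seen. There were 12 such probes, of which 6 were well above background on all arrays. With *miR-139-3p*, 4 of these 6 were above 0.5 and 0 below -0.5, with a median of 1.31, while with *miR-139-5p* the median was 0.12. The probe named lnc-HIST2H2AA3-1:1 had levels of -1.27 in mock, -0.80 with *miR-139-5p* but 0.75 with *miR-139-3p*, a rise of 2.01 with *miR-139-3p*. The probe named lnc-HIST1H1A-1:2 had levels of -2.93, -3.11 and -1.05, a rise of 1.87. The probe named lnc-HIST4H4-2:1 had its lowest level on the *miR-139-5p* array, at -1.56, beside -0.69 in mock and -0.82 with *miR-139-3p*. Over all gene names the share above 0.5 with *miR-139-3p* was 35.4%, so 4 of 6 probes is a small count beside a high background.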
